A study of Mus musculus with 4 samples.

Results

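The ribbon synapse genes of the hair cell were followed here as a set of 10 genes chosen by name for their part in transmitter release: Ctbp2, Bsn, Pclo, Rims2, Rimbp2, Otof, Cabp2, Slc17a8, Snap25 and Nsf. All 10 were present among the 23420 genes measured, and all 10 passed the minimum of 100 reads over the 12 replicates that 16077 genes passed. RNA came from cochleae of Atoh1-GFP transgenic CD1 mice at postnatal day 1, in which GFP is driven by an Atoh1 enhancer and marks hair cells. All organs were cultured overnight, and one part of them was then exposed to 0.5 mM gentamicin for 3 h while the other stayed untreated. Cells were dissociated and sorted by GFP, with dimly fluorescent cells left out, into hair cells (HC; GFP positive) and non-hair cells (NHC; GFP negative, from supporting cells, the epithelial ridges and surrounding tissue). The 4 groups were therefore untreated HC, gentamicin-treated HC, untreated NHC and gentamicin-treated NHC, with 3 replicates each and 22400507 to 28152049 recovered reads per replicate. The study calls the replicates biological, but whether they came from separate cultures is not given in the sources used here, and p-values measure the spread between these libraries. The score of a gene below is its deposited value, normalized reads with 1 added, and marker sums and levels per kb have that 1 removed.

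Hair cells release glutamate at ribbon synapses, where a dense body built largely of RIBEYE, a product of Ctbp2, holds vesicles close to calcium channels. Bassoon (Bsn) and piccolo (Pclo) are giant scaffold proteins of the active zone, and bassoon anchors the ribbon to the membrane. RIM2 (Rims2) and RIM-binding protein 2 (Rimbp2) help to gather calcium channels and vesicles there. Otoferlin (Otof) is the calcium sensor needed for exocytosis in inner hair cells, CaBP2 (Cabp2) is a calmodulin-like regulator of the channel, and VGLUT3 (Slc17a8) fills vesicles with glutamate. Snap25 encodes a SNARE protein of the plasma membrane and Nsf the ATPase that takes SNARE complexes apart after fusion, and both serve neurons as well.

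All 10 hair cell markers listed, among them Atoh1, Pou4f3 and Myo7a, were higher in untreated HC than in untreated NHC, with summed levels of 8657 to 9142 against 294 to 319.7 normalized reads, and none of the 10 was called changed by gentamicin in HC in the model of all 4 groups (unadjusted limma p under 0.01 and fold over 1.2). With the hair cell groups fitted alone Atoh1 was called higher and Cdh23 and Pvalb lower. Markers of supporting cells did not separate the populations, with sums of 2289 to 2794 in untreated HC and 1994 to 3455 in untreated NHC, and 2 of 10 called higher in HC and 1 lower. No marker of the other cell types stood at 0 in all replicates of a group. For neurons, 9 of 15 listed markers were at least 4 times higher in untreated NHC than in untreated HC (Tubb3, Nefh, Prph, Stmn2, Gap43, Elavl3, Elavl4, Ntrk3 and Snhg11). Their summed level ranged from 536 to 1377 in untreated NHC, 260 to 823 in treated NHC, 94.7 to 247 in untreated HC and 49.8 to 62.8 in treated HC. All 9 were lower in every treated HC replicate than in every untreated one, and 2 of them were called, or 7 with the hair cell groups alone, where 27.5% and 31.5% of all genes were. Of all 15 neuron markers, 2 were called higher and 9 lower in untreated HC than in untreated NHC. With gentamicin, 13 of the 15 had a negative difference in HC, 12 of them without overlap. Nefm (0.02) and Map2 (0.17) had positive differences there, with overlapping replicates. Of the 24 markers of glia, supporting cells, mesenchyme and endothelium, 23 had a negative difference in HC, 14 were lower without overlap, and 8 were called lower and none higher. With the hair cell groups alone 8 were called lower and 1 higher. Of all genes, 33.1% were lower in HC without overlap. The share called lower was 14.8%, or 18.2% with the hair cell groups alone. The summed level of the supporting cell markers was 1245 to 2433 in treated HC.

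The 250 bases upstream of the RefSeq start sites (GRCm38.p6) fell into CpG-rich and CpG-poor windows. RefSeq windows were at hand for 7 members (10 windows), and not for Otof, Rims2 and Snap25. Bsn had 32 CpG dinucleotides, Nsf 30 and Pclo 25, against a median of 6 over 32817 windows of all genes. Slc17a8 had 3 and 5 in its windows, Cabp2 4 and 5, Rimbp2 4, and Ctbp2 7 and 2. Annotated exons cover 104 of the 250 bases in the window of Bsn and 243 in the Ctbp2 window with 7. They also cover 29 in the Cabp2 window with 5 and 4 in the Slc17a8 window with 5, so these windows are in part exon sequence. All windows of Ctbp2 and Cabp2, and the Slc17a8 window with 3, lie inside the annotated gene. No window lay at the outermost annotated start of Ctbp2 or Cabp2, so their counts describe inner start sites. The 3 members with CpG-rich windows also had the smallest differences between hair cells and non-hair cells among these 7, at 0.46 for Nsf, 0.89 for Pclo and 1.38 for Bsn on the log2 scale, against 2.28 to 5.37 for the other 4. This is a description of 7 genes, without a test. One pair of each kind is printed to show the contrast, read 5′ to 3′ on the strand of the gene, with CpG dinucleotides in capitals. The windows are Pclo chr5:14514668-14514917 (plus strand, 61.2% GC), Nsf chr11:103954057-103954306 (minus strand, 66.0% GC), Cabp2 chr19:4082238-4082487 (plus strand, 56.8% GC) and Rimbp2 chr5:128953487-128953736 (minus strand, 63.6% GC).
Pclo: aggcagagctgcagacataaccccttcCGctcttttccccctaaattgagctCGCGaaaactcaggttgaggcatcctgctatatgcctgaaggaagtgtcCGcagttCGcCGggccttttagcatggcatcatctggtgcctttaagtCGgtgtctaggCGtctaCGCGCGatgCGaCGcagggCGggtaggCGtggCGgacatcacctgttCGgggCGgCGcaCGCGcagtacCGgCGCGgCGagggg
Nsf: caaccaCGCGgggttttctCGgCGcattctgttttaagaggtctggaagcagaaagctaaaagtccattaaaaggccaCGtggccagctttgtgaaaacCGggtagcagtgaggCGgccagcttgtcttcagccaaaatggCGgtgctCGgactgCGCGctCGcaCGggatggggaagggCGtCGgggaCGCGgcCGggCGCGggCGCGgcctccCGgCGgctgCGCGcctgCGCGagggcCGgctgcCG
Cabp2: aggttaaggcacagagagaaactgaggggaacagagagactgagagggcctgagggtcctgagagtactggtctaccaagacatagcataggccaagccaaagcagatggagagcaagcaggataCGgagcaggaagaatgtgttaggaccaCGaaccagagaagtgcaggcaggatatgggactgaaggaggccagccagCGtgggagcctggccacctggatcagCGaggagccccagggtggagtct
Rimbp2: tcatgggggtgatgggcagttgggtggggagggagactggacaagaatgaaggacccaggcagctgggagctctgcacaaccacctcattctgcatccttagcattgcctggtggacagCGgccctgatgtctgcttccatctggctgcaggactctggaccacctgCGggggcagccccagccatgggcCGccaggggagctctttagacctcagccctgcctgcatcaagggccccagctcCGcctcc

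Of the 10 members, 9 were higher in untreated hair cells than in untreated non-hair cells, by 0.46 to 9.85 on the log2 scale of normalized reads plus 1. Among all genes tested, 74.1% differed, 31.9% being higher in hair cells and 42.2% lower (limma, Benjamini-Hochberg adjusted p under 0.05), with a median difference of -0.12. The difference was 9.85 ± 0.28 (SE) for Otof, 5.37 ± 0.13 for Cabp2, 4.85 ± 0.32 for Rims2, 3.90 ± 0.31 for Rimbp2, 2.94 ± 0.15 for Slc17a8 and 2.28 ± 0.09 for Ctbp2. These 6 had limma adjusted p-values of 3.8e-07 or lower. Bsn (1.38 ± 0.38, limma adjusted p = 0.0057), Pclo (0.89 ± 0.34, limma adjusted p = 0.034) and Nsf (0.46 ± 0.12, limma adjusted p = 0.0038) were higher by less. The call of Pclo was lost when any replicate of untreated HC or replicate 1 of untreated NHC was left out (limma adjusted p = 0.062 to 0.148). Snap25 was not called (-0.36 ± 0.45, limma adjusted p = 0.49), and its 95% interval ran from -1.35 to 0.63.

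By normalized reads, which are not divided by length, Otof ranked 3 of all 23420 genes in untreated hair cells. Per kilobase of exon it ranked 25 of the 21737 genes with a known exon length. Per kilobase of annotated exon, which allows genes to be compared, Otof stood at 493 ± 14.4 (SD, n = 3) normalized reads per kb in untreated hair cells. Ctbp2 (36.8 ± 1.69), Rims2 (34.7 ± 1.56) and Cabp2 (34.0 ± 3.06) came next, and neighbours among these 3 overlapped between replicates. Rimbp2 followed at 18.3 ± 0.883 and Slc17a8 at 12.5 ± 1.52, each apart from its neighbours. Snap25 (7.99 ± 0.761) and Nsf (7.97 ± 0.357) overlapped, and Bsn (6.05 ± 0.404) and Pclo (4.24 ± 0.306) were lowest per kb. In untreated non-hair cells Snap25 led the members at 11.04 ± 4.67 per kb, and Cabp2, with 2 to 5 reads per replicate, was lowest at 0.0986 ± 0.0451.

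**Figure D1:**
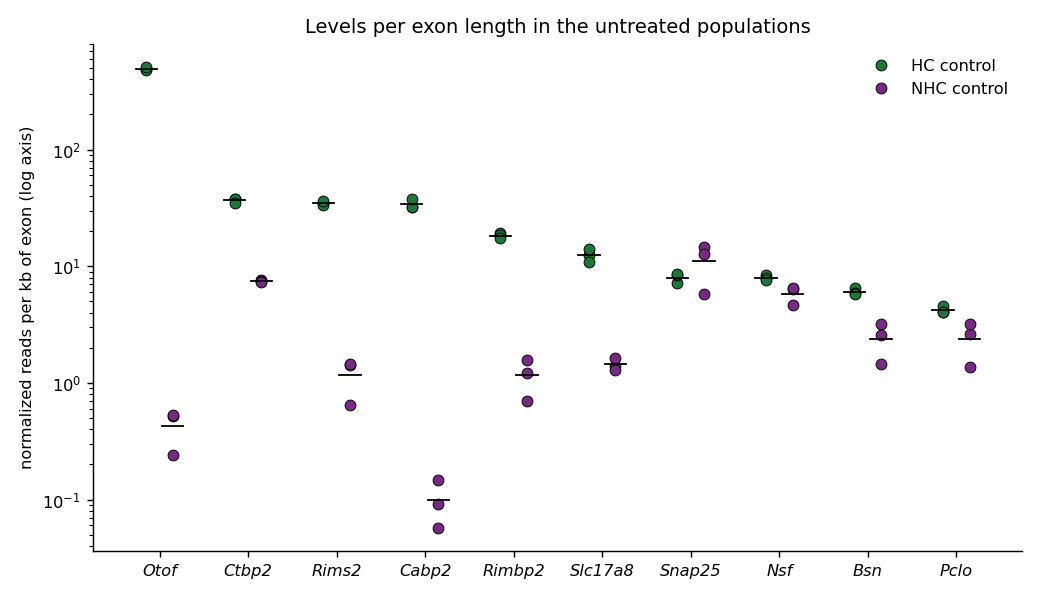
Normalized reads per kb of exon (log axis) of each member in the 3 replicates of untreated hair cells (green) and untreated non-hair cells (purple), with horizontal bars at the means. Otof stands alone at 493 in hair cells, and Snap25 is the one member whose mean is higher in non-hair cells.

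After 3 h of gentamicin 2 of the 10 members were called in hair cells, Ctbp2 higher and Bsn lower. In the model of all 4 groups the Bsn call was lost in all 6 fits that left out a hair cell replicate. It was kept in 1 of 8 other settings. A gene was called when its unadjusted limma p was under 0.01 and its fold change over 1.2, the criteria of the study, and 27.5% of the 16077 genes tested met them (12.7% higher, 14.8% lower). The share of members called, 2 of 10, was not above that background. The model held all 4 groups, so the spread between non-hair cell replicates entered the errors. With the hair cell groups fitted alone, Pclo was also called lower and Rims2 higher, which made 4 of 10 members against 31.5% of all genes (13.3% higher, 18.2% lower). These 4 calls held when any 1 hair cell replicate was left out of that fit. In sorted bulk RNA, a lower level per cell and fewer cells expressing a gene cannot be told apart.

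**Figure D2:**
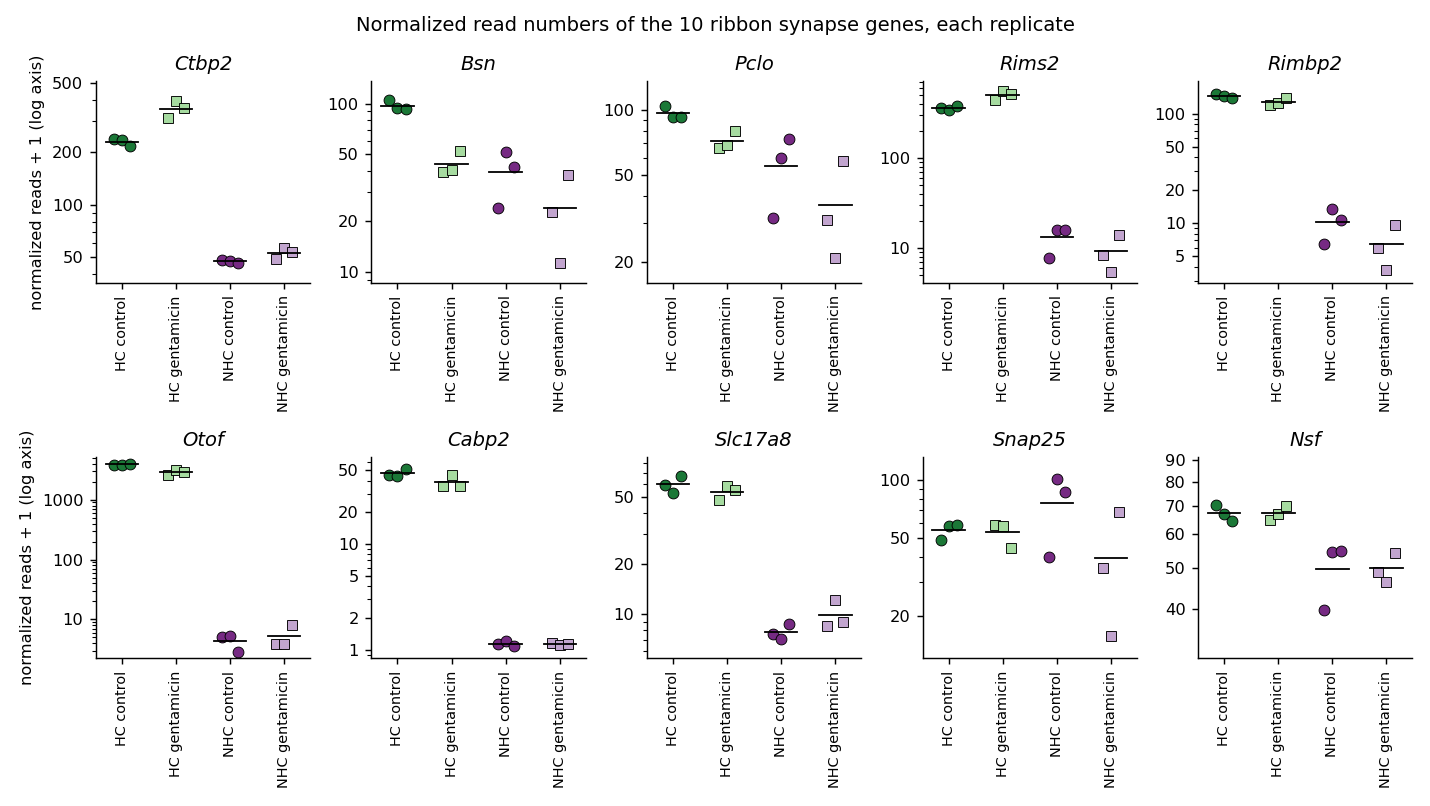
Normalized reads plus 1 (log axis, a scale for each gene) of the 10 members in each replicate of the 4 groups, with horizontal bars at the means. In hair cells the replicates of the treated and untreated groups do not overlap for Ctbp2, Bsn, Pclo, Rims2 and Otof. Among all genes tested, 21.7% were higher and 33.1% lower with gentamicin without overlap there.

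Ctbp2 had scores of 236, 236 and 218 in the untreated hair cell replicates and 312, 394 and 360.0 after gentamicin. Every treated replicate was above every untreated one, which held for 21.7% of all genes. The difference was 0.62 ± 0.09 on the log2 scale, a 1.54-fold rise (limma adjusted p = 0.00042), and it was called in all 6 fits that left out a hair cell replicate and in all 8 other settings tried. In non-hair cells Ctbp2 moved little, from 48.3, 47.5 and 46.4 to 48.6, 56.2 and 53.1 (0.15 ± 0.09, limma adjusted p = 0.40). The responses of the populations differed by 0.47 ± 0.12 (limma interaction, adjusted p = 0.028), a call made for 13.4% of all genes and for no other member. This interaction call was kept in only 6 of the 12 fits that left out 1 replicate, and Rims2 was called in 2 of those 12. The gene (7:132987563-133124354, minus strand) carries transcripts for the transcriptional corepressor CtBP2 (445 codons, from a start at 133123367) and for the longer ribbon protein (988 codons, from a start at 133015248), which share their last exons, and the deposited value pools them. About 5.05% of its exon bases also lie in exons of Fgfr2 on the same strand. Its paralog Ctbp1 stood at 262 ± 9.95 in untreated and 229.9 ± 16.6 in treated hair cells (-0.19 ± 0.08, limma adjusted p = 0.079, not called).

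Bsn had scores of 105, 94.5 and 92.9 in untreated hair cells and 39.0, 40.3 and 52.1 after gentamicin. The groups did not overlap, all treated replicates lying below all untreated ones, which held for 33.1% of all genes. It fell by 1.16 ± 0.38 on the log2 scale, 2.24-fold (limma adjusted p = 0.034). Fitted on the hair cell groups only, the SE was 0.11 and the limma adjusted p = 0.00077. The unadjusted p lay just under 0.01 in the model of all 4 groups, and the call was lost there whenever a hair cell replicate was left out. Most markers of neurons, glia, supporting cells, mesenchyme and endothelium also had negative differences in treated hair cells, and their part in the result was not tested. The whole untreated NHC profile was then subtracted from each hair cell replicate in proportion to the 9 neuron markers. The share taken was 11.7% to 23.3% of that profile in untreated and 5.90% to 7.20% in treated hair cells. This neuronal subtraction also removes RNA of the other non-hair cell types, so it cannot isolate the neuronal part. After it, the difference in Bsn was -1.15 (limma adjusted p = 0.041), with an unadjusted p just over 0.01. The amount subtracted was 4.33% to 9.55% of the Bsn level in untreated and 5.39% to 6.34% in treated hair cells. In non-hair cells Bsn went from 24.0, 51.8 and 42.0 to 22.8, 11.2 and 37.7 (-0.81 ± 0.38, limma adjusted p = 0.30), with overlapping groups. The difference between the populations in the response of Bsn was -0.35 ± 0.53 (limma adjusted p = 0.70, 95% interval -1.52 to 0.81), so a response particular to hair cells was not shown.

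Pclo had scores of 104, 92.2 and 92.3 in untreated hair cells and 66.7, 69.1 and 79.7 after gentamicin, again without overlap. All its treated replicates were lower, which held for 33.1% of all genes. The difference was -0.42, with an SE of 0.34 in the model of all 4 groups (limma adjusted p = 0.37, not called) and 0.09 with the hair cell groups alone (limma adjusted p = 0.0075, called). After the neuronal subtraction it was -0.36. Rims2 went the other way, from 362, 346 and 378 to 442, 557 and 519.8. Its difference was 0.48, not called in the model of all 4 groups (SE 0.32, limma adjusted p = 0.28) and called with the hair cell groups alone (SE 0.10, limma adjusted p = 0.0070). Rimbp2 had scores of 153, 147 and 139 before and 119, 125 and 139 after gentamicin, with the highest treated replicate inside the untreated range, and was not called in either fit (-0.20 ± 0.31). The ribbon and active zone members thus had differences of both signs in hair cells, positive for Ctbp2 and Rims2 and negative for Bsn, Pclo and Rimbp2.

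Otof, by far the most abundant member, had scores of 3844, 3823 and 4029.6 in untreated hair cells and 2574, 3171 and 2923 after gentamicin. All treated replicates were again below all untreated ones, which held for 33.1% of all genes. The difference, -0.44 ± 0.28, was not called in the model of all 4 groups (limma adjusted p = 0.25) nor with the hair cell groups alone (limma adjusted p = 0.058, 95% interval -0.80 to -0.07). In non-hair cells Otof was at 2.89 to 5.16 untreated and 3.82 to 8.06 treated. Cabp2 had scores of 44.6, 44.4 and 51.7 in untreated and 35.6, 45.0 and 35.4 in treated hair cells, where replicate 2 lay within the untreated range. It was not called (-0.28 ± 0.13, limma adjusted p = 0.10), but passed the criteria without that replicate. Slc17a8 had 59.4, 52.8 and 67.1 before and 48.1, 58.4 and 55.0 after gentamicin, with overlapping groups (-0.15 ± 0.15, limma adjusted p = 0.48).

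Snap25 and Nsf showed the smallest differences in hair cells. Snap25 had scores of 49.3, 57.6 and 58.8 in untreated and 58.5, 58.0 and 44.6 in treated hair cells (-0.05 ± 0.45, limma 95% interval -1.04 to 0.94). With the hair cell groups alone the interval narrowed to -0.33 to 0.23. Nsf had 70.6, 67.2 and 64.7 before and 65.1, 67.3 and 70.1 after gentamicin, and its interval in the model of all 4 groups was -0.25 to 0.25. Scaled to total reads the differences were 0.05 for Snap25, a change of sign, and 0.10 for Nsf, where that scaling moved the median of all genes from -0.09 to -0.01. No direction is given for either.

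**Figure D3:**
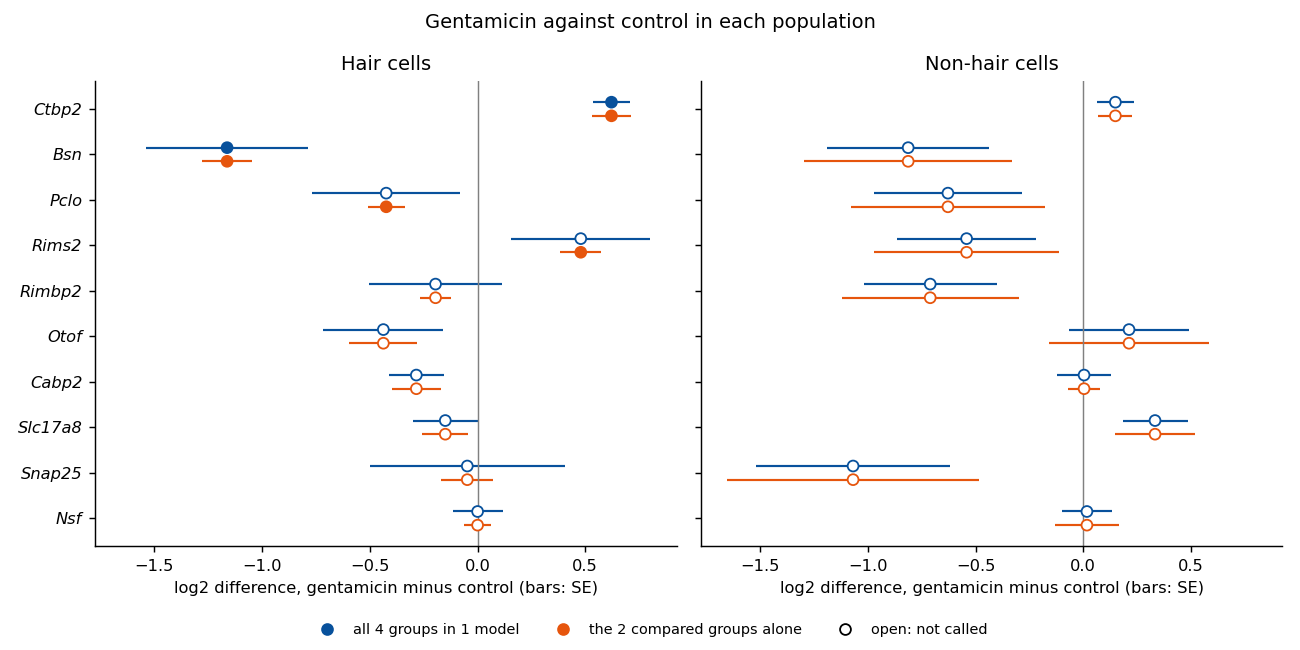
Log2 difference of each member, gentamicin minus control, in hair cells (left) and non-hair cells (right), with bars of 1 SE. Blue points come from the model of all 4 groups and orange points from the compared groups alone. Filled points were called. In hair cells Ctbp2 and Bsn are filled in both fits, Pclo and Rims2 in the orange fit only, and no member is filled in non-hair cells.

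In non-hair cells none of the 10 members was called, where 5.44% of all genes met the criteria (3.18% higher, 2.26% lower), nor with the non-hair cell groups alone, where 2.38% did. At an unadjusted limma p under 0.05, which 17.1% of all genes had, 3 members had a difference: Snap25 (-1.07 ± 0.45, adjusted p = 0.26), Rimbp2 (-0.71 ± 0.31, adjusted p = 0.27) and Slc17a8 (0.33 ± 0.15, adjusted p = 0.29). With the non-hair cell groups alone none of the 3 passed that threshold, which 11.1% of all genes did. Snap25 had scores of 40.3, 101 and 86.8 in untreated and 35.4, 15.8 and 68.5 in treated non-hair cells. Replicates of each group therefore differed more among themselves than the group means did. Pclo ranged from 31.7 to 72.9 in untreated and from 20.8 to 58.1 in treated non-hair cells, Rims2 from 7.74 to 16.0 and from 5.38 to 13.9, and Rimbp2 from 6.50 to 13.5 and from 3.75 to 9.63.

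Snap25, Bsn, Pclo, Rims2 and Rimbp2 shared their lowest non-hair cell replicate, treated replicate 2, with the sum of the 9 neuron markers. The highest replicate of that sum, untreated replicate 2, was also the highest for Snap25, Bsn and Rimbp2, while Pclo and Rims2 were highest in untreated replicate 3. From the lowest to the highest of the 6 replicates, and with the added 1 removed, Snap25 spanned 6.77-fold, Bsn 4.97-fold, Rimbp2 4.55-fold, Pclo 3.63-fold and Rims2 3.42-fold. Ctbp2 spanned 1.22-fold, Nsf 1.40-fold and Slc17a8 1.84-fold, and none of the 3 had its lowest value in treated replicate 2. Treated replicate 2 was also the lowest of the 6 in the summed markers of supporting cells (1678) and glia (537). It was the highest in those of mesenchyme (8908) and hair cells (323), and neither in those of endothelium (134). The part of neurons or of other cell types in the non-hair cell values was not tested. Without untreated replicate 1, Snap25 and Rimbp2 were called lower in treated non-hair cells. Without treated replicate 3, Bsn, Pclo, Rimbp2 and Snap25 were. The share of all genes called in these fits is not given here, so these calls cannot be set against a background.

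**Figure D4:**
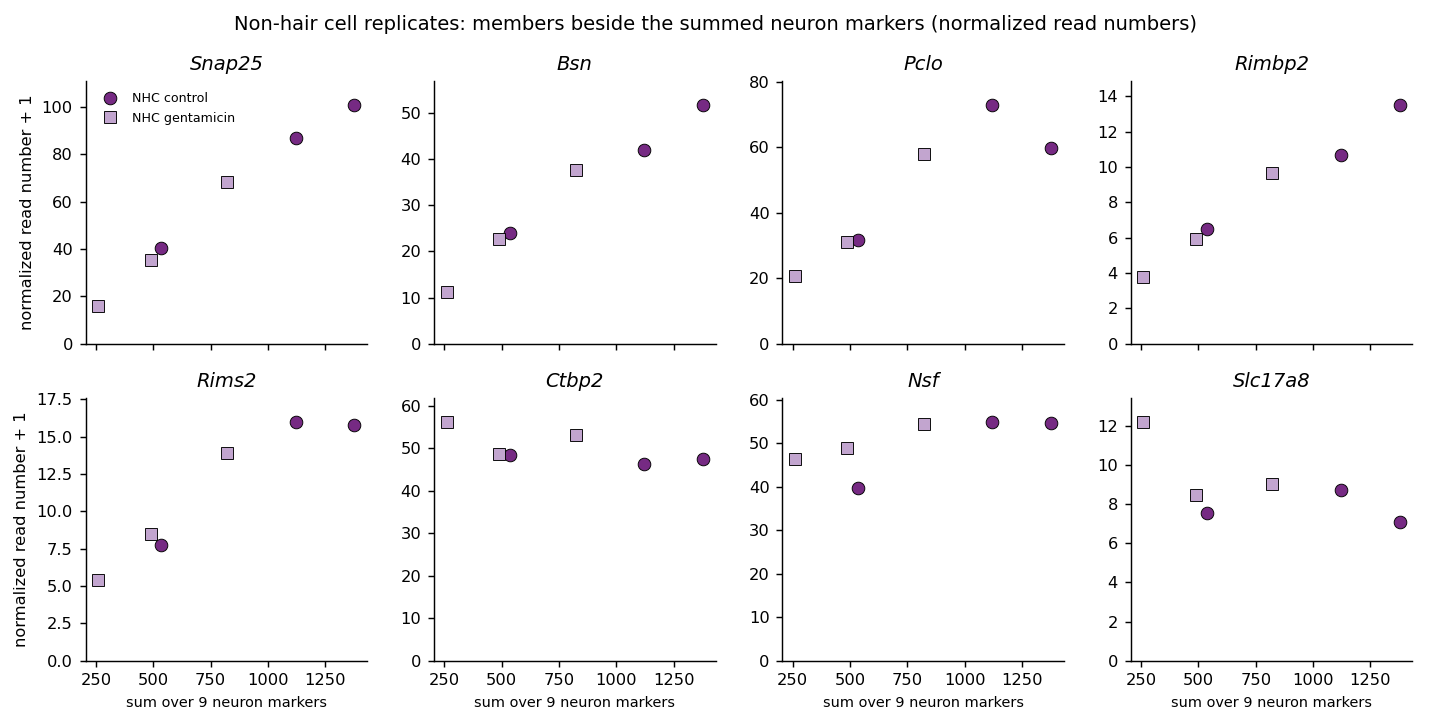
Normalized reads plus 1 of 8 members in the 6 non-hair cell replicates against the summed normalized reads of 9 neuron markers in the same replicates. Circles are untreated and squares treated. Snap25, Bsn, Pclo, Rimbp2 and Rims2 are lowest where the marker sum is lowest (260), whereas Ctbp2, Nsf and Slc17a8 are not. The replicate with that lowest sum was also lowest in the summed markers of supporting cells and glia, which are not drawn.

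The nearest relatives and partners of the members gave a mixed picture in hair cells. Of the scaffold relatives, Rims1 was scarce (a score of 2.17 ± 0.836 in untreated hair cells, of which 1 is the added offset, -0.57 ± 0.26 with gentamicin, not called), and Erc1, an active zone protein that binds RIMs, was at 108 ± 6.76 and 103 ± 10.8 (-0.07 ± 0.08). Snap23, the widely expressed homolog of Snap25, rose from 23.6 ± 2.23 to 62.7 ± 6.07 in hair cells, by 1.41 ± 0.10 on the log2 scale (limma adjusted p = 1.6e-05). It was at 46.1 ± 4.30 and 45.2 ± 3.01 in non-hair cells, and the responses differed (1.43 ± 0.14, limma interaction, adjusted p = 0.00065). Vamp2, the vesicle SNARE partner, fell from 131 ± 10.2 to 94.3 ± 4.30 in hair cells (-0.48 ± 0.12, limma adjusted p = 0.012). Stx1a (-0.01 ± 0.09) and Napa, the adaptor of Nsf (-0.22 ± 0.06, a fold under 1.2), were not called there.

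Of 17 other calcium sensors and ferlins, 1 was called in hair cells (5.88%, against 27.5% of all genes). With the hair cell groups alone 6 were (35.3%, against 31.5%). Syt2 had a score of 80.0 ± 6.21 in untreated and 50.6 ± 4.16 in treated hair cells, without overlap, but was called only with the hair cell groups alone (-0.66 ± 0.35 in the model of all 4 groups). Syt1 (0.09 ± 0.11) was not called. Of the ferlins related to Otof, Myof fell from 6.40 ± 0.434 to 4.18 ± 0.484 (-0.62 ± 0.18, limma adjusted p = 0.022) and Dysf was not called (-0.45 ± 0.30). Of the relatives of Cabp2, Cabp1 (-0.78 ± 0.41) and Cabp4 (0.30 ± 0.17) were low and not called. Cacna1d, the pore of the hair cell presynaptic calcium channel, was at 469.7 ± 13.3 and 462 ± 55.0 (-0.03 ± 0.17). The neuronal vesicular glutamate transporters Slc17a6 (-1.11 ± 0.54) and Slc17a7 (-1.19 ± 0.46) stood at 6.24 ± 1.43 and 5.25 ± 2.47 in untreated hair cells, below their 25.2 ± 10.4 and 24.8 ± 9.61 in untreated non-hair cells. Neither was called in the model of all 4 groups, and both were called lower with the hair cell groups alone (limma adjusted p = 0.0064 and 0.015).

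Across the wider lists of release and retrieval genes, 3 of 101 genes tested rose in gentamicin-treated hair cells and 17 fell, with a median difference of -0.21 against -0.09 over all genes. The called share was 19.8%, against 27.5% of all genes, and 35.6% against 31.5% with the hair cell groups alone (5 rose and 31 fell). The order of these combined shares thus depends on the fit. Of all genes, 12.7% rose and 14.8% fell in the model of all 4 groups, and 13.3% and 18.2% with the hair cell groups alone. In both fits the share of listed genes that rose was below that of all genes, and the share that fell was above it, without a test. Of 22 SNARE genes and partners, 2 rose (Snap23 and Stxbp3a, 0.27 ± 0.06) and 5 fell, among them Vamp1 (-1.30 ± 0.23), Vamp3 (-0.75 ± 0.13) and Vamp2. Of 15 scaffold and priming genes, none rose and 2 fell, one of them the priming factor Unc13b (-0.63 ± 0.17). Of 19 vesicle genes 3 fell, namely Syn2 (-1.12 ± 0.36), Rab3d (-0.60 ± 0.13) and Syngr2 (-0.50 ± 0.11). Of 23 genes of endocytic retrieval, the phosphatase gene Synj1 rose (0.51 ± 0.13) and 5 fell, among them Dnm1 (-0.51 ± 0.13), Bin1 (-0.45 ± 0.12), Itsn1 (-0.34 ± 0.08) and Ap2m1 (-0.27 ± 0.06). The channel subunit gene Cacna2d2 fell by 0.48 ± 0.13, Myof was the 1 called gene of 17 calcium sensors and ferlins, and neither of 2 complexins tested was called. After the neuronal subtraction the number of genes called dropped from 20 to 9, which cannot be read as the neuronal part, since the whole NHC profile was subtracted. The share of all genes called after the subtraction is not given here, so a general loss of calls cannot be told apart. In non-hair cells 1 of the 101 rose (Unc13c, 0.82 ± 0.15) and 5 fell, among them Dnm1 (-0.46 ± 0.13). The called share there was 5.94%, near the 5.44% of all genes. The list count there ran from 1 to 34 when a non-hair cell replicate was left out.

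**Figure D5:**
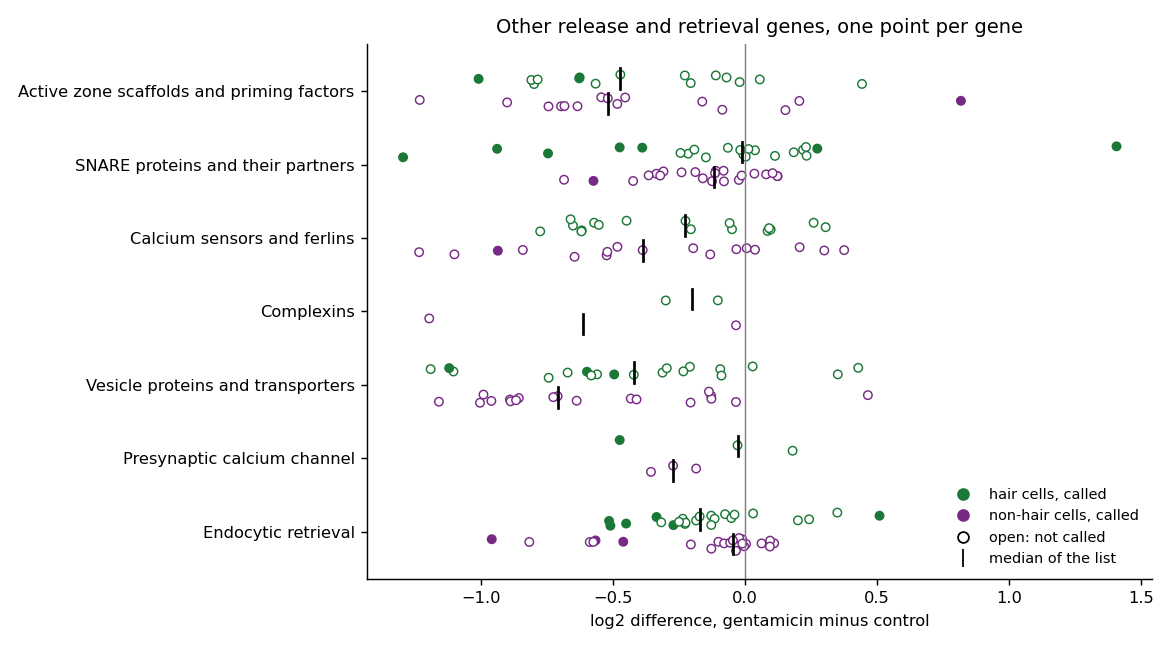
Log2 difference, gentamicin minus control, of each tested gene of 7 lists of release and retrieval genes in hair cells (green) and non-hair cells (purple). Filled points were called and black bars are list medians. Snap23 stands apart at 1.41 in hair cells.

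The pattern of each member over the 12 replicates was set beside that of 13820 other genes by Pearson's r of log2 values, as a description, since hair cell and non-hair cell replicates form separate clusters and any gene that differs between them has a high r. Otof was most like Pkhd1l1 and Barhl1 among others (r = 0.999 each), and Rims2 most like Trim36, Trnp1 and Mcf2l. Rimbp2 came closest to Mgat5b, Camk2b and Sema6b, Cabp2 to B3gnt4, Gm14635 and Chrna1, and Ctbp2 to Lrrc47, Adck1 and Tmem183a. Slc17a8 came closest to Bcas3, Tmem216 and Hsph1. Likeness was lower for Bsn (Rims3, Slc35f3 and BC068157, r = 0.974 to 0.977) and Pclo (Nacad, Rimkla and Rph3a, r = 0.976 to 0.983). Snap25 was most like Pou4f1, Esrrg and Syn1 (r = 0.956 to 0.980), and Nsf most like Atp2a2, Fam160b2 and Tomm70a (r = 0.962 to 0.978).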

How the data were processed

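Polyadenylated RNA from the sorted cells was sequenced as 50-base reads by the authors, aligned with TopHat 2 to the mouse genome mm10, and deposited as 1 table per group with 3 replicate columns of normalized reads plus 1, used here as a score. The study's methods name a length-scaled unit, but the deposited score is not divided by gene length: whole reads, within 0.02, were recovered for 73.8% to 75.3% of low values. This is too few for a count test, so log2 scores of genes with at least 100 recovered reads were tested with limma 3.58.1 in R 4.3.3 (two-sided, empirical Bayes with a trend), with all 4 groups in 1 model. Gentamicin contrasts were called at p under 0.01 and fold over 1.2, and the others at a Benjamini-Hochberg adjusted p under 0.05 over all genes tested. Exon lengths came from GENCODE M21. Whether counting used strand is not given in the sources used here. The log2 of scores understates changes of low genes, and depth (22400507 to 28152049 reads per replicate) limits only the scarcest values.

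The members, lists and tests were chosen with earlier results of these data known. All members were named. From each wider list at most 4 called genes per direction were named, by the largest difference among those with a mean score of at least 5 and no overlap between replicates, with 17 relatives fixed by name. The 3 most similar genes per member were taken by Pearson's r. Some genes that these rules name are not reported here. Replicates with the same number deviated together between untreated HC and NHC (r = 0.200 to 0.316). Between treated HC and NHC the values were 0.377, -0.039 and -0.018 for replicates 1, 2 and 3. The main model did not pair replicates, and a replicate block was fitted as another setting. Between control and gentamicin a pairing was not shown.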

Additional observations from a re-analysis of the deposited data

Results flagged for a closer look

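The response of Ctbp2 to gentamicin differed between the cell populations, being 0.47 higher (log2) in hair cells than in non-hair cells by the interaction term of limma (SE 0.12, adjusted p = 0.028). Its call was lost in 6 of the 12 fits that left out 1 replicate and kept in the 6 other settings tried, with differences of 0.40 to 0.56 over the former and 0.47 to 0.55 over the latter.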

How the results depend on the processing

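Ctbp2 was called higher in treated hair cells in every setting tried. The number of members called in hair cells, 2 in the main model, was 1 with the replicate block, the neuronal subtraction, an offset of 0.1 in place of 1, no minimum of reads or one of 1000, and scaling by TMM or by total reads, each time because Bsn was lost, and 4 with the compared groups alone. Leaving out a hair cell replicate gave 1 to 2 members in the main model and 4 to 5 with the hair cell groups alone. The subtraction and these last fits were chosen after seeing the data. In non-hair cells the number of members called, 0, ran to 4 when a replicate was left out, and for the difference between responses, 1, from 0 to 2. For the wider lists the count in hair cells, 20, was 12 with scaling by total reads, 36 with the compared groups alone, 9 after the neuronal subtraction, 10 to 19 without a hair cell replicate, and 27 to 37 without one and with the hair cell groups alone (31 without untreated replicate 1). In non-hair cells it was 6, 1 with the compared groups alone and 1 to 34 without a replicate. The cause of these shifts was not tested. The shares of all genes called without a replicate or after the subtraction are not given here, so these counts have no background. The 9 members higher in hair cells than in non-hair cells were 8 to 9 in all settings. There, Pclo was lost with no minimum of reads (adjusted p = 0.053, limma), and TMM normalization moved the median of all genes from -0.12 to -0.01. The replicate block changed no other call of a member. Between control and gentamicin, same-numbered replicates correlated at 0.037 to 0.052 in hair cells and -0.23 to 0.68 in non-hair cells, which neither shows nor excludes a pairing. The block moved the genes called from 4418 to 4618 in hair cells and from 875 to 878 in non-hair cells.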
